A study of Mus musculus with 12 samples.

Results

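A group of 106 mouse genes is described whose RNA was higher in embryo-derived libraries labelled as knockouts of both Lyl1 and Scl, and near the wild-type level in libraries labelled as knockouts of either gene alone. The members were chosen from measured values: group means of TMM-normalised counts scaled to a common library total (CPM) over all 12 libraries, with a mean of at least 10 CPM in the LYL1 SCL DKO group, a LYL1 SCL DKO to WT ratio of at least 2.5, and LYL1 KO to WT and SCL KO to WT ratios both between 0.67 and 1.5. They are 0.688% of the 15399 genes that passed a filter on low counts, out of 49671 in the table, and all 106 passed that filter through at least 1 group. Artn passed it through the LYL1 SCL DKO group alone, with 797 to 1128 counts there and at most 10 in any other library. Every comparison of the 4 groups was used by this choice, so the values of members below are descriptions without a test.

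The RNA came from pools of mouse embryos at embryonic day 9.5 by the labels, in 4 groups of 3 libraries. LYL1 SCL DKO (DKO below) is a knockout of Lyl1 and Scl together, LYL1 KO and SCL KO lack 1 of them by label, and WT is wild type. The labels give no allele, promoter, strain or number of embryos per pool, and they do not say whether the replicates are separate litters. Differences are therefore measured against the spread between these libraries, and in bulk RNA a change in the share of a cell type cannot be told apart from a change in RNA per cell.

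Scl, whose gene symbol is Tal1, and Lyl1 encode DNA-binding proteins of the basic helix-loop-helix class that are close relatives and are made in blood and vessel precursors. Each pairs with an E protein, binds the E-box motif CANNTG, and works in complexes with GATA factors, Lmo2 and Ldb1. Such complexes can activate or repress their targets, and Scl is known as essential for the first blood cells, while mice without Lyl1 survive.

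Tal1 (chromosome 4, 115056426 to 115071755, GRCm38) was at 100.4, 100.1 and 77.7 CPM in DKO 1, 2 and 3, against 619, 542 and 575 CPM in LYL1 KO, 118, 117 and 93.4 CPM in SCL KO and 559, 643 and 513 CPM in WT. Lyl1 (chromosome 8, 84701457 to 84704715) was at 88.3, 107.5 and 56.5 CPM in DKO, 90.4, 87.4 and 85.5 CPM in LYL1 KO, 210.3, 198 and 118 CPM in SCL KO and 203, 192 and 149 CPM in WT. Tal1 was at 16.2% of its WT mean in DKO and 19.2% in SCL KO. Lyl1 was at 46.5% of its WT mean in DKO and 48.5% in LYL1 KO, so much of its RNA was still counted in both groups, and DKO 2 lay close to SCL KO 3, the lowest library without a Lyl1 knockout label. The labels do not say which part of either gene was deleted. The libraries held 24324685 to 29212443 counts, and TMM factors were 1.14 to 1.30 in DKO and 0.846 to 1.08 in the other 9 libraries. Defining markers of the labelled tissue, whole embryo, were mostly absent: of 25 genes of heart, neural tube, somite and gut, 5 passed the filter and 8 had no count, Myh6, Myl7, Nkx2-5, Sox1, Myf5, Foxa2, Ttr and Shh. The 21 megakaryocyte and platelet genes summed to 20338 to 39013 CPM in DKO and 81877 to 94234 CPM in WT, and 27 macrophage and monocyte genes to 7216 to 11148 CPM in DKO and 8857 to 15754 CPM in WT.

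The 5 promoter sequences below belong to Artn, the member with the highest ratio, to its neighbours Slc6a9 and St3gal3, which are also members, and to Pim2 and Nanos1, the members next in ratio. They are RefSeq sequences on GRCm38.p6, 5′ to 3′ on the gene's strand, from 250 bases before to 50 bases after the annotated start, and capitals mark each E-box CANNTG. They lie at chr4:117929714-117930013 (minus strand, Artn), chr4:117835008-117835307 (plus strand, Slc6a9), chr4:118134897-118135196 (minus strand, St3gal3), chrX:7878056-7878355 (plus strand, Pim2) and chr19:60755737-60756036 (plus strand, Nanos1).
Artn: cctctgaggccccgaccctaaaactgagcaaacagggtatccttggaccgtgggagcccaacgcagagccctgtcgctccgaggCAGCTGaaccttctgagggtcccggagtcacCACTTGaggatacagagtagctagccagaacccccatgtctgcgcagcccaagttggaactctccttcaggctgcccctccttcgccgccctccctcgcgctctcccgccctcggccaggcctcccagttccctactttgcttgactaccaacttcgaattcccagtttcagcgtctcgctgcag
Slc6a9: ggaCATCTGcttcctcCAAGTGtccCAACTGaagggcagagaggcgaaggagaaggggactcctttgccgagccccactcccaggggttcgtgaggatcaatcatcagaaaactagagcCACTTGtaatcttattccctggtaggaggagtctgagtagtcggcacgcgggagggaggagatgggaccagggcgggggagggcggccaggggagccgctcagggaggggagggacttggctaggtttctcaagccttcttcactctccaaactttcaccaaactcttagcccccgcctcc
St3gal3: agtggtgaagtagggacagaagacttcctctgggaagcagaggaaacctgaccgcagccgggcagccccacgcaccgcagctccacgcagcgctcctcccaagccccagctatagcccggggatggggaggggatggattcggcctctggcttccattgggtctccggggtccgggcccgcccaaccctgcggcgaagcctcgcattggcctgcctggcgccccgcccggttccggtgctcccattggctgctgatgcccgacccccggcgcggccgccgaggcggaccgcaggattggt
Pim2: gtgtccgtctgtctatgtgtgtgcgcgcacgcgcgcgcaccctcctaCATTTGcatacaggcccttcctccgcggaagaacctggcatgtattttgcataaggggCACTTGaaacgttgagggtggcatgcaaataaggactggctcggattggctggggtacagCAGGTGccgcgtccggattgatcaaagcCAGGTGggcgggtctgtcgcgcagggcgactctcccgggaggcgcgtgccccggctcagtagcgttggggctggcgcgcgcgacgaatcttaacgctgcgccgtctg
Nanos1: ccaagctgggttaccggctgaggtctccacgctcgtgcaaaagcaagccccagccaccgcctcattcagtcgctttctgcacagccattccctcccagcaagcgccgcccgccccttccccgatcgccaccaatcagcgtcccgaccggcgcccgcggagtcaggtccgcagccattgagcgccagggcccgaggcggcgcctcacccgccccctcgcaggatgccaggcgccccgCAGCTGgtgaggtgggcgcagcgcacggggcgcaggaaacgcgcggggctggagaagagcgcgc
These windows hold 2 E-boxes in Artn, 4 in Slc6a9, 0 in St3gal3, 4 in Pim2 and 1 in Nanos1. Promoters of 77 of the 106 members were in the RefSeq table. CANNTG stood in 61.0% of them and in 72.1% of all 27025 promoters, CAGATG in 19.5% and 17.3%, and CAGCTG in 14.3% and 16.1%, each on either strand, the last 2 being forms of CANNTG. The GATA motif AGATAA, on either strand, stood in 3.9% of the members' promoters and in 11.4% of all. The median GC content was 62.0% in the members' promoters and 52.7% in all. The set of all promoters was not limited to tested genes or to a level of RNA, as the members were. The shares were not adjusted for GC content either, so nothing is read from their differences. A match is a string of letters, not a measured binding site.

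The members' DKO to WT ratio had a median of 3.33 and ran from 2.51 to 153, and 36 lay under 3, 18 at 5 or more and 5 at 10 or more. The LYL1 KO to WT ratio had a median of 0.966 and the SCL KO to WT ratio one of 1.253, where all tested genes had medians of 0.999 and 1.00. Within the band that chose them, 88 members had an SCL KO to WT ratio above 1 and 48 a LYL1 KO to WT ratio above 1. Of all 369 genes that passed the DKO mean and the DKO to WT ratio, 233 had an SCL KO to WT ratio above the band and 41 a LYL1 KO to WT ratio above it. The last members inside the 2.5 threshold were Il17ra (2.54), Ap1ar (2.52) and Srfbp1 (2.51), and the first genes outside it were Dennd1b (2.48), Fmnl3 (2.47) and Cpd (2.46).

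**Figure D1:**
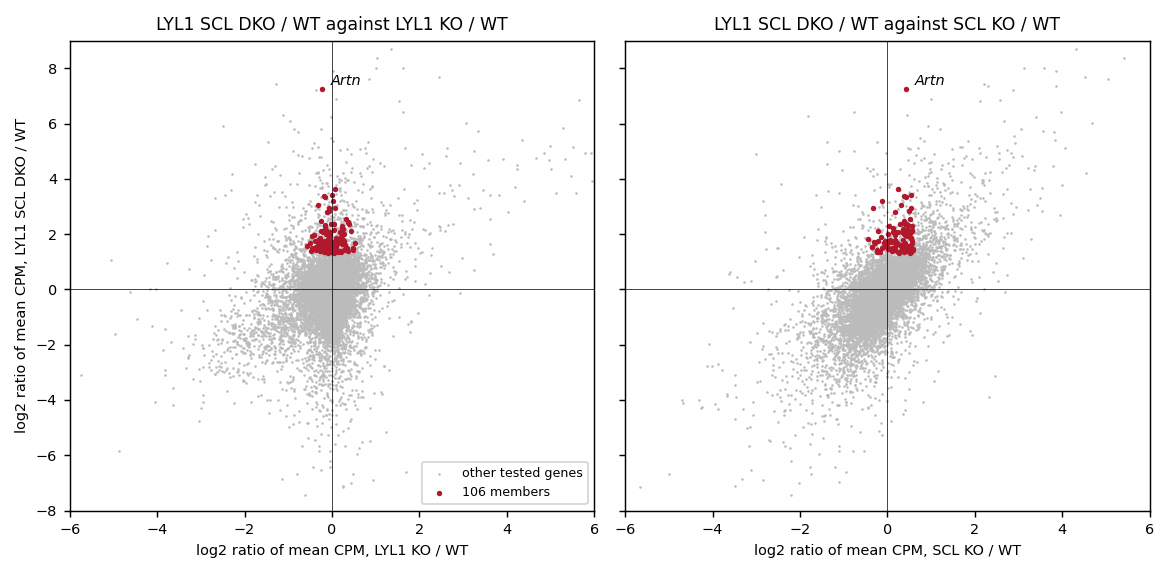
Log2 ratio of mean CPM of DKO to WT (vertical) against that of LYL1 KO to WT (left) and SCL KO to WT (right) for all tested genes in grey and the 106 members in red; genes beyond the axes or with a mean of 0 are not drawn. The members fill a narrow column near 0 on both horizontal axes by their choice, and Artn stands far above the other members.

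In the table of all genes, 16.4% of genes were called higher in DKO than in WT and 18.1% lower, 17.4% higher in DKO than in LYL1 KO, 8.37% higher in DKO than in SCL KO, and 3.51% had a positive interaction, which is a more positive effect of the Lyl1 knockout in SCL KO than in WT embryos (edgeR's quasi-likelihood test, adjusted p under 0.05 over all genes). Only 0.0714% were called in either direction in LYL1 KO against WT and 5.03% in SCL KO against WT. Of the members, 104 were called higher than in WT, 104 higher than in LYL1 KO, 102 higher than in SCL KO and 76 with a positive interaction, and nothing is read from these counts, since the same contrasts chose the members. No member was called in LYL1 KO against WT, and Rps6ka5 and Ap1ar were called in SCL KO against WT. With the replicate number as a block, 1226 genes rather than 774 were called in SCL KO against WT, among them 8 members, Acap1, Ap1ar, Myo1e, Plcg1, Rps6ka5, Stap1, Strbp and Zfp141. Every DKO library lay above all 9 others for 95 members, as it did for 11.4% of all tested genes. The 11 whose groups overlapped were Slc24a1, Gpc4, Slc4a4, Cd276, Arid5a, Tnfrsf13b, Lat2, Smad7, Stap1, Abcg3 and H2-Ob.

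The members were sorted by known role, after their values were seen. They were 10 ligands, matrix and related proteins (median ratio 3.53), 12 receptors and surface proteins (3.43) and 34 signalling and cytoskeletal proteins (3.34). The rest were 20 transcription and RNA-binding factors (3.28), 21 transporters and enzymes (3.27) and 9 others (3.41). By type of gene, 101 code for proteins, 3 are long intergenic RNAs, 1 is a transcript still awaiting experimental evidence, and 1 is the pseudogene Pisd-ps1. In the text below the 3 values of a group stand in the order of replicates 1, 2 and 3.

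**Figure D2:**
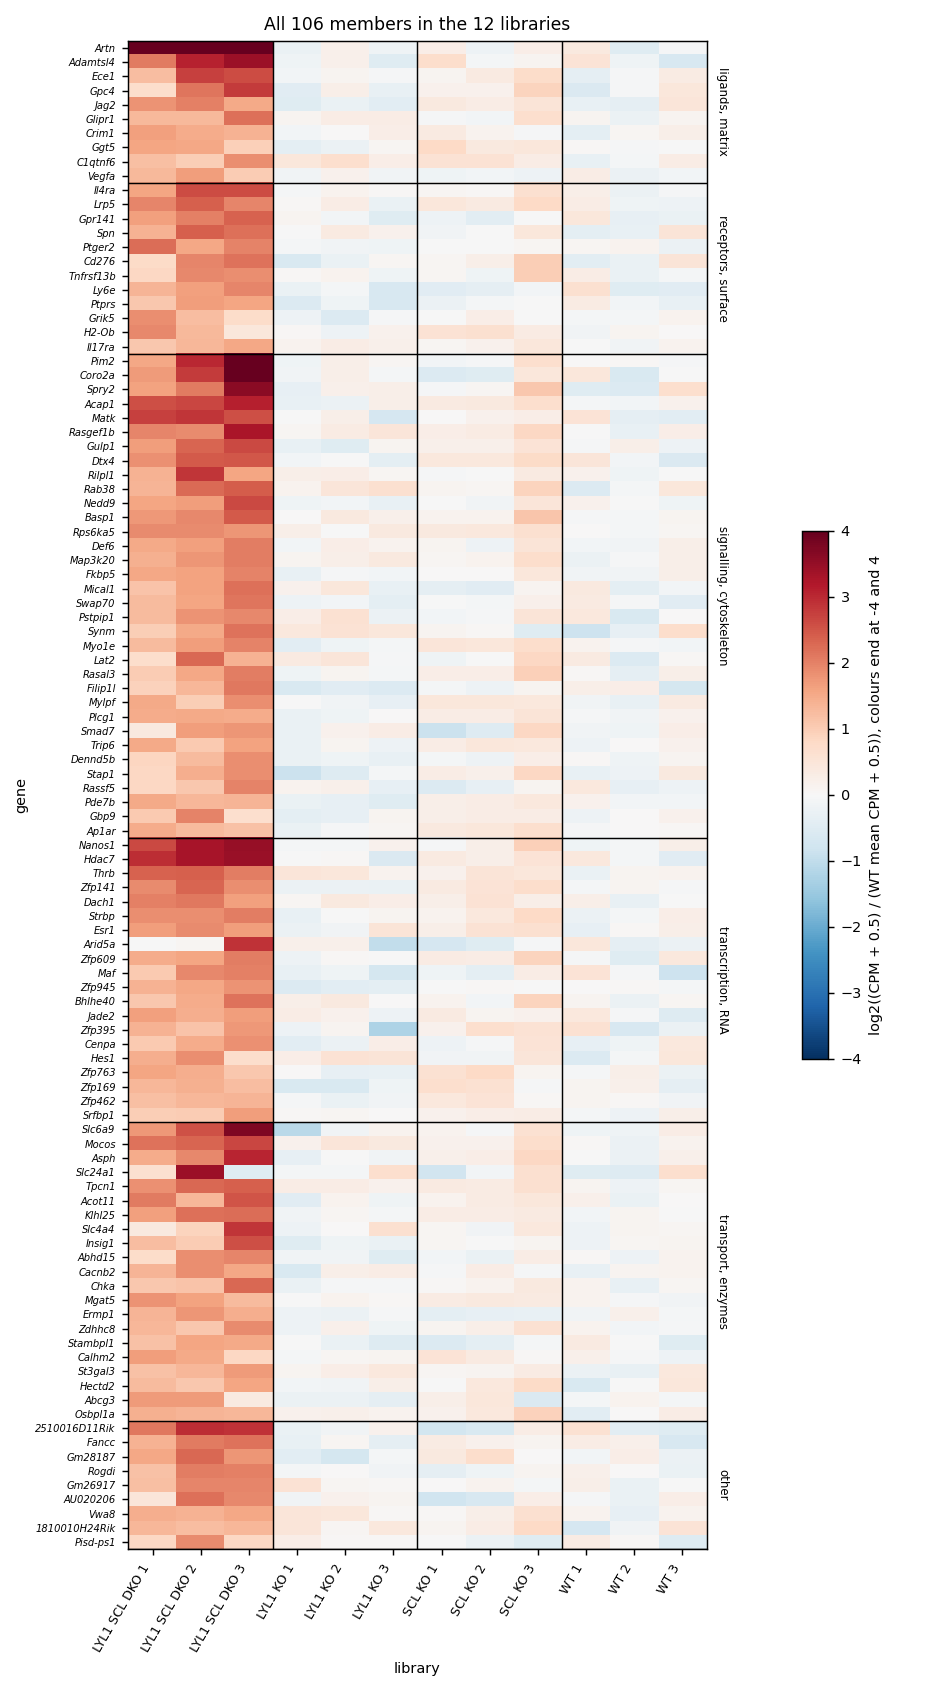
All 106 members (rows, sorted by role and ratio) in the 12 libraries (columns), coloured by log2 of CPM + 0.5 over the WT mean + 0.5. The 3 DKO columns at the left are red for nearly every gene, and Slc24a1 and Arid5a stand out as high in 1 DKO library alone.

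Among the ligands, matrix and related proteins, Artn encodes artemin, a ligand of the GDNF family that signals to neurons through Gfra3 and Ret. It was at 29.7, 26.5 and 35.2 CPM in DKO, against 0.081, 0.301 and 0.128 CPM in LYL1 KO, 0.348, 0.107 and 0.35 CPM in SCL KO and 0.416, 0 and 0.182 CPM in WT. Every DKO library lay far above the other 9, whose counts summed to 13 in LYL1 KO, 22 in SCL KO and 15 in WT, so that the ratio of 153 and the single-KO ratios rest on few counts. A count of 0, as in WT 2, allows a level of up to 0.131 CPM (3 counts, counting error only). Its receptor genes were scarcely detected, with at most 33 counts of Ret and 15 of Gfra3 in any library. Adamtsl4, a secreted protein of microfibrils, was at 7.27, 15.2 and 19.1 CPM in DKO, against 1.13, 1.62 and 0.808 CPM in LYL1 KO, 2.51, 1.249 and 1.47 CPM in SCL KO and 2.21, 1.13 and 0.693 CPM in WT. Ece1, the enzyme that makes active endothelin, was at 53.5, 151 and 141 CPM in DKO, against 20.9, 24.2 and 21.7 CPM in LYL1 KO, 24.2, 28.6 and 37.3 CPM in SCL KO and 17.5, 21.7 and 28.1 CPM in WT. Both were higher in every DKO library than in any other, with DKO 1 lowest of the 3.

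Jag2, a ligand of Notch receptors, was at 12.7, 14.9 and 10.4 CPM in DKO, against 2.19, 2.64 and 2.3 CPM in LYL1 KO, 4.45, 4.17 and 4.86 CPM in SCL KO and 2.58, 2.44 and 4.81 CPM in WT. Vegfa, the main growth factor of vessel cells, was at 84, 109 and 69.4 CPM in DKO, against 31.1, 38.8 and 30.8 CPM in LYL1 KO, 30.5, 31.5 and 29.6 CPM in SCL KO and 41.7, 29.2 and 31.5 CPM in WT. The DKO libraries lay above all others for both genes, and DKO 2 was the highest. The other 5 of this class, Glipr1, Crim1, Ggt5, C1qtnf6 and Gpc4, had ratios from 2.67 (C1qtnf6) to 4.3997 (Gpc4). For Gpc4, a cell-surface heparan sulfate proteoglycan, the groups overlapped.

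Il4ra, the receptor chain for interleukin-4 and interleukin-13, led the receptors. It was at 106, 219 and 218 CPM in DKO, against 34.5, 39.1 and 36.3 CPM in LYL1 KO, 37.2, 36.7 and 55.1 CPM in SCL KO and 41.3, 30.2 and 34.5 CPM in WT, and DKO 1, the lowest of its group, still exceeded every other library. Ly6e, a lipid-anchored surface protein, had the highest DKO mean of all members and was at 241, 292 and 366 CPM in DKO, against 78.1, 88.2 and 60.1 CPM in LYL1 KO, 69, 73.4 and 87.3 CPM in SCL KO and 147, 67.3 and 68 CPM in WT. WT 1 stood above the other 8 libraries outside DKO without reaching a DKO value, and reads of the Ly6 family may be split among similar copies. The other 10 receptor and surface genes had ratios between 2.54 and 4.46. They include Lrp5, a Wnt co-receptor (4.46), Ptger2, a prostaglandin E2 receptor (4.05), Spn, the leukocyte sialoglycoprotein CD43 (4.19), and Tnfrsf13b, a receptor of B cell survival factors (3.20). Of the 19 tested lymphoid and cytotoxic genes, 3 rose in DKO against WT and 7 fell. The list summed to 241 to 919 CPM in DKO against 53.7 to 167 CPM in WT, with the granzymes Gzmb at a mean of 268 CPM and Gzmc at 195 CPM in DKO, against 0.245 and 0.0423 CPM in WT. In SCL KO the means of Gzmb and Gzmc were 1.06 and 1.23 CPM. Pax5, Ebf1 and Rag1, genes of lymphocyte development, were among those that fell, and Gzmg had no count. Immunoglobulin genes, which the list does not hold, had higher means in DKO than in WT. Ighm was at a mean of 738 CPM in DKO, 355 CPM in LYL1 KO, 97.2 CPM in SCL KO and 65.3 CPM in WT. Igkc was at 264, 239, 26.7 and 21.9 CPM in the same order. The part of such cells in the members' levels was not tested.

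Of the signalling proteins, Pim2, a survival kinase, had the highest ratio, 12.5. It was at 18, 50.1 and 148 CPM in DKO, against 5.06, 6.93 and 6.08 CPM in LYL1 KO, 5.34, 5.56 and 9.41 CPM in SCL KO and 5.87, 5.93 and 5.5 CPM in WT. The DKO libraries differed 8.24-fold among themselves, with DKO 3 highest. Coro2a, an actin-binding coronin, was at 47.4, 101 and 242 CPM in DKO, against 12.9, 16.8 and 13.5 CPM in LYL1 KO, 9.48, 9.88 and 19.8 CPM in SCL KO and 19.5, 9.15 and 13.9 CPM in WT. Spry2, a feedback inhibitor of receptor tyrosine kinases, was at 8.54, 11.9 and 36.1 CPM in DKO, against 1.86, 2.94 and 3.02 CPM in LYL1 KO, 2.36, 2.64 and 5.77 CPM in SCL KO and 1.62, 1.53 and 4.27 CPM in WT. In Pim2, Coro2a and Spry2 alike, DKO 3 was the highest library, yet even DKO 1 exceeded every library outside DKO.

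Acap1, a regulator of Arf6 and receptor recycling, was at 109, 115 and 155 CPM in DKO, against 14.4, 15.1 and 20.7 CPM in LYL1 KO, 22.7, 23.2 and 28.2 CPM in SCL KO and 16.5, 16.4 and 20.1 CPM in WT. Matk, a kinase that inhibits Src family kinases, was at 57.8, 64.2 and 52.4 CPM in DKO, against 8.26, 9.83 and 5.06 CPM in LYL1 KO, 8.47, 9.42 and 10.2 CPM in SCL KO and 12.4, 6.41 and 6.16 CPM in WT. Rasgef1b, an exchange factor for Rap GTPases, was at 112, 106 and 279 CPM in DKO, against 30.2, 35.8 and 40.03 CPM in LYL1 KO, 34.2, 35.5 and 50.5 CPM in SCL KO and 27.8, 22.8 and 34.2 CPM in WT. The groups did not overlap for any of them, and the spread within DKO was small for Acap1 and Matk and larger for Rasgef1b, where DKO 3 was high.

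Gulp1, an adaptor of engulfment receptors, was at 9.38, 15 and 18.7 CPM in DKO, against 2.03, 1.73 and 2.85 CPM in LYL1 KO, 3.09, 3.07 and 4.06 CPM in SCL KO and 2.5, 3.14 and 2.19 CPM in WT. Dtx4, a ubiquitin ligase of the Deltex family, was at 74.3, 114 and 117 CPM in DKO, against 19.1, 20.4 and 15.5 CPM in LYL1 KO, 27.9, 27.4 and 35.3 CPM in SCL KO and 28.9, 19.1 and 13.6 CPM in WT. Rilpl1, a partner of Rab GTPases, was at 10.05, 28.9 and 11.5 CPM in DKO, against 4.29, 4.37 and 3.74 CPM in LYL1 KO, 3.4, 3.53 and 4.65 CPM in SCL KO and 4.04, 3.09 and 3.54 CPM in WT. Again no library of another group reached the DKO values, and DKO 2 was high for Rilpl1. Basp1, a membrane protein of growing axons that is also a transcription co-repressor, was at 158, 177 and 260.2 CPM in DKO, against 47.4, 62 and 53.9 CPM in LYL1 KO, 51.3, 51.3 and 102 CPM in SCL KO and 45.3, 44.1 and 51 CPM in WT. Its SCL KO 3 value was the highest outside DKO and lay below DKO 1. Smad7, the inhibitory Smad that dampens TGF-beta signals, was at 5.99, 15.4 and 16.2 CPM in DKO, against 3.61, 5.12 and 5.53 CPM in LYL1 KO, 2.24, 2.96 and 8.26 CPM in SCL KO and 3.997, 3.88 and 5.47 CPM in WT, and here SCL KO 3 exceeded DKO 1, so that the groups overlapped. The remaining 23 signalling and cytoskeletal members had ratios between 2.52 and 4.29, among them Nedd9, Plcg1, Rassf5 and Swap70.

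Nanos1, an RNA-binding translational repressor, led the transcription and RNA-binding factors. It was at 17.6, 27.7 and 32.1 CPM in DKO, against 2.23, 2.22 and 2.76 CPM in LYL1 KO, 2.32, 2.89 and 5.14 CPM in SCL KO and 2.08, 2.22 and 2.88 CPM in WT. Hdac7, a class IIa histone deacetylase that works with transcription factors, was at 42.8, 55 and 61 CPM in DKO, against 5.1, 5.35 and 3.32 CPM in LYL1 KO, 6.69, 6.17 and 7.77 CPM in SCL KO and 6.99, 4.84 and 3.61 CPM in WT. For both, DKO 1 was the lowest of the DKO libraries and still far above all others. Thrb, a thyroid hormone receptor, was at 36.1, 36.8 and 28.8 CPM in DKO, against 9.4, 9.23 and 7.36 CPM in LYL1 KO, 7.43, 9.67 and 9.13 CPM in SCL KO and 5.33, 7.1 and 7.29 CPM in WT, again without overlap between DKO and the rest. Hes1, a Notch target and basic helix-loop-helix repressor, was at 18.4, 24.9 and 10.7 CPM in DKO, against 7.78, 9.83 and 9.53 CPM in LYL1 KO, 5.76, 5.78 and 9.27 CPM in SCL KO and 4.21, 6.14 and 8.97 CPM in WT, and its DKO 3 value was only just above LYL1 KO 2. The other 16 had ratios between 2.51 and 4.30, including Esr1, the oestrogen receptor (3.60), Dach1 (4.06), Maf (3.38) and Bhlhe40, a further basic helix-loop-helix repressor (3.14). Arid5a reached 25.6 CPM in DKO 3 and 2.98 and 3.19 CPM in DKO 1 and 2, against 2.27 to 4.29 CPM in WT, so its membership rests on DKO 3.

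Slc6a9, the glycine transporter GlyT1, headed the transporters and enzymes. It was at 14.3, 25.3 and 57.6 CPM in DKO, against 1.58, 3.46 and 4.34 CPM in LYL1 KO, 4.37, 3.78 and 6.3 CPM in SCL KO and 3.37, 3.4 and 4.96 CPM in WT. Mocos, which activates molybdenum cofactor enzymes, was at 65.2, 72.9 and 92.3 CPM in DKO, against 15.8, 19.999 and 18.5 CPM in LYL1 KO, 15.7, 15.9 and 23.1 CPM in SCL KO and 14.7, 11.8 and 15.6 CPM in WT. Asph, a hydroxylase of aspartyl residues, was at 119.7, 163 and 359 CPM in DKO, against 33.7, 42.1 and 39.1 CPM in LYL1 KO, 49.6, 51.2 and 76.8 CPM in SCL KO and 42.5, 36.1 and 49.8 CPM in WT. The groups were separate for these genes, and DKO 3 was highest.

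Tpcn1, an endolysosomal cation channel, was at 186, 258 and 274 CPM in DKO, against 63.5, 63.9 and 59.2 CPM in LYL1 KO, 66.3, 65.6 and 80.8 CPM in SCL KO and 56, 45.2 and 54.6 CPM in WT. The transcript 2510016D11Rik, a member with a ratio of 7.77, overlaps Tpcn1 on the same strand, so reads of the pair may be divided. Ermp1, an endoplasmic reticulum peptidase, was at 225, 299 and 241 CPM in DKO, against 76.4, 74.9 and 85.7 CPM in LYL1 KO, 66.6, 69.4 and 71.6 CPM in SCL KO and 79.3, 102 and 82.9 CPM in WT. Insig1, which holds the sterol sensor in the endoplasmic reticulum, was at 132, 114 and 342 CPM in DKO, against 39.6, 49.4 and 46.9 CPM in LYL1 KO, 58.8, 55.7 and 60.2 CPM in SCL KO and 48.6, 59.7 and 60.1 CPM in WT. The DKO libraries lay above all others for each of these genes. Slc24a1, a sodium, calcium and potassium exchanger, was at 5.02, 37.7 and 2.03 CPM in DKO, against 2.88, 2.86 and 5.15 CPM in LYL1 KO, 1.59, 2.78 and 5.07 CPM in SCL KO and 2.08, 2.004 and 5.14 CPM in WT. DKO 2 alone was high and DKO 3 lay at the foot of the WT range, so its mean is a value of 1 library. Gbp9 is also a member (ratio 2.55) but overlaps Gbp4 and Gbp8 on its strand, and its reads are uncertain.

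**Figure D3:**
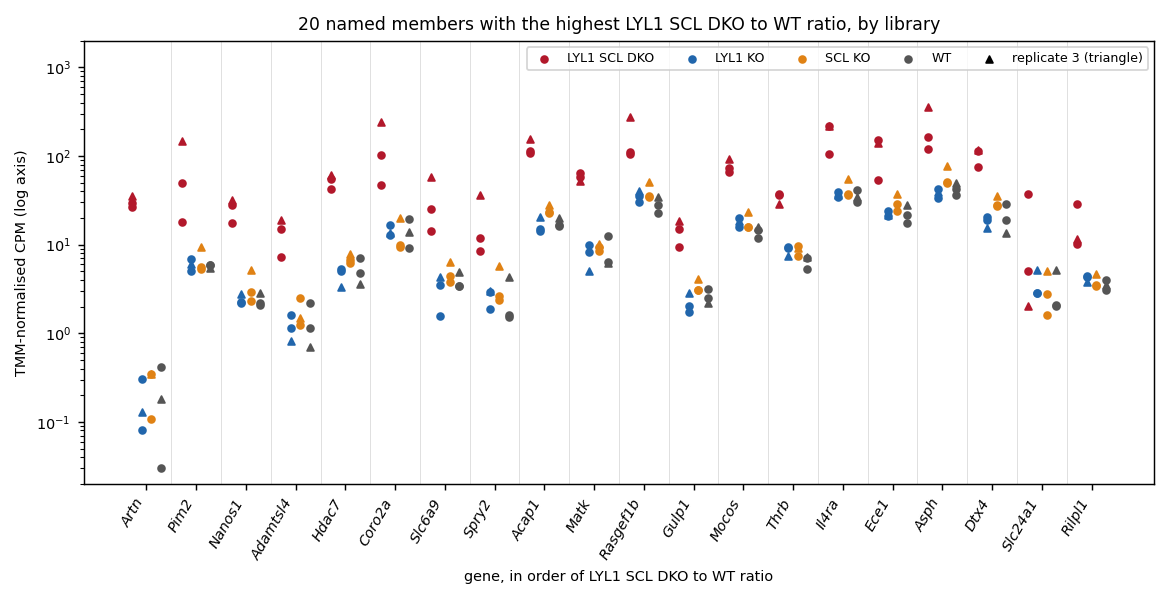
TMM-normalised CPM (log axis) of the 20 named members with the highest DKO to WT ratio, with 1 point per library and triangles for replicate 3; Artn had no count in WT 2, which is drawn at the foot of the axis. DKO points lie above the other 3 groups for each gene except Slc24a1.

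Across the members the DKO libraries were not alike. DKO 3 was the highest of the 3 for 65 members (61.3%), against 33.9% of the 8421 tested genes with a DKO mean of at least 10 CPM. DKO 1 was the lowest for 67 (63.2%, against 27.6%), and the members' summed level was 5350, 7069 and 8344 CPM in DKO, 1828, 2047 and 1922 CPM in LYL1 KO, 2054, 2106 and 2684 CPM in SCL KO and 1994, 1752 and 2016 CPM in WT. The sum in DKO 1, the lowest of that group, exceeded the sum in SCL KO 3, the highest elsewhere. SCL KO 3 was the highest of the 9 libraries outside DKO for 57 members (53.8%, against 22.3%). The DKO maximum was under 2-fold of the minimum for 66 members and at least 3-fold for 11, and its median was 1.71-fold.

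On the second principal component of log2 CPM, which held 12.4% of variance, DKO 1 and 2, SCL KO 1 and 2 and WT 1 and 2 had positive scores and replicate 3 of these groups negative ones, as did all LYL1 KO libraries. Within replicates 1 and 2, 87 members had a DKO to WT ratio of at least 2.5, and within replicate 3 alone 89 did, with 70 in both. The libraries also differ in sex-linked RNA, since DKO 1, DKO 2 and LYL1 KO 3 had Y-linked transcripts and the others Xist. Of the members, Pim2 and Gpc4 lie on the X chromosome, and Gpc4 was at 32.3, 88.5 and 138 CPM in DKO, against 13.1, 18.8 and 26.9 CPM in WT. For both genes DKO 1 was below DKO 2, and both of these libraries had Y-linked transcripts. The part of these library differences in the members' levels was not tested.

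**Figure D4:**
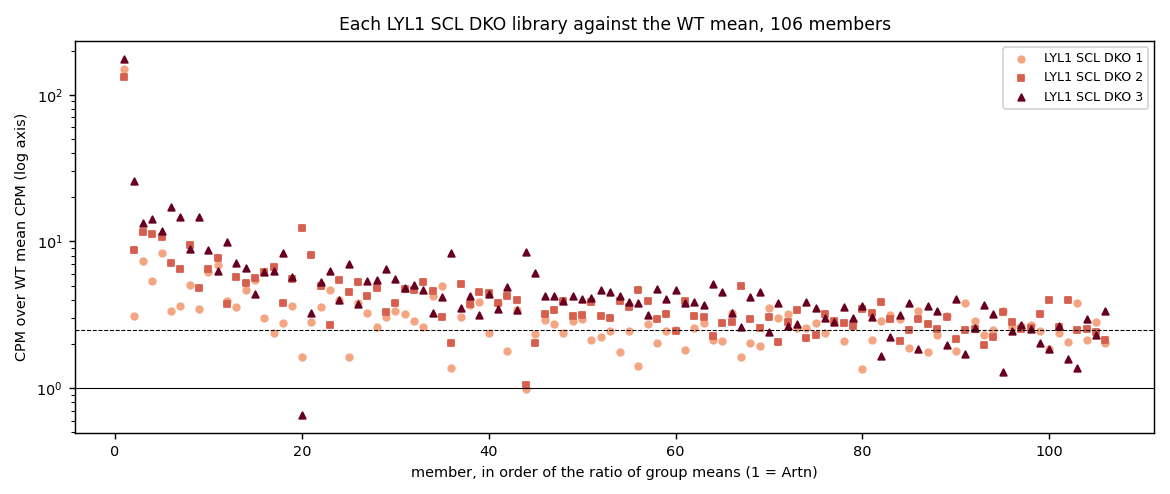
CPM of each DKO library over the WT mean (log axis) for the 106 members in order of the ratio of group means, with a solid line at 1 and a dashed line at 2.5. DKO 3 (dark triangles) lies highest for 65 members, and only Slc24a1 falls clearly under 1, in DKO 3.

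Of the 106, 4 lie within 10 Mb of Tal1, where 175 genes were tested (2.29%, against 0.688% of all tested genes), and 0 lie within 10 Mb of Lyl1 among 147. Artn, Slc6a9 and St3gal3 stand together on chromosome 4, 2.76 to 2.86 Mb from Tal1, and the fourth is Acot11 (8.25 Mb). Artn runs from 117926162 to 117929763 on the minus strand of GRCm38, and St3gal3, a sialyltransferase on the same strand, ends 2.39 kb upstream of its start. Slc6a9 lies 51.0 kb away on the other strand. St3gal3 was at 35.2, 38.8 and 51.2 CPM in DKO, against 16.6, 18.7 and 20.5 CPM in LYL1 KO, 16.2, 16.6 and 19.2 CPM in SCL KO and 12.9, 12.3 and 20.8 CPM in WT, and the DKO libraries were above all others. Between Slc6a9 and Artn the tested genes Atp6v0b, Dph2 and Ipo13 had DKO to WT ratios of 1.11, 1.54 and 1.72. B4galt2, which overlaps Slc6a9 on the other strand, had a ratio of 1.1 at low means of 0.396 CPM in DKO and 0.359 CPM in WT. Of the 33 tested genes within 1 Mb of Artn, 5 had a DKO to WT ratio over 2.5. Among all 15399 tested genes, 906 had a ratio of 2.5 or more. The 5 include Artn, Slc6a9 and St3gal3, which were chosen by that ratio. The others were Ptprf (3.33, with a LYL1 KO to WT ratio of 0.586 and a DKO mean of 5.46 CPM) and Tctex1d4 (5.27, with an SCL KO to WT ratio of 4.28). The means of Tctex1d4 were low, 0.841 CPM in DKO and 0.160 CPM in WT.

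**Figure D5:**
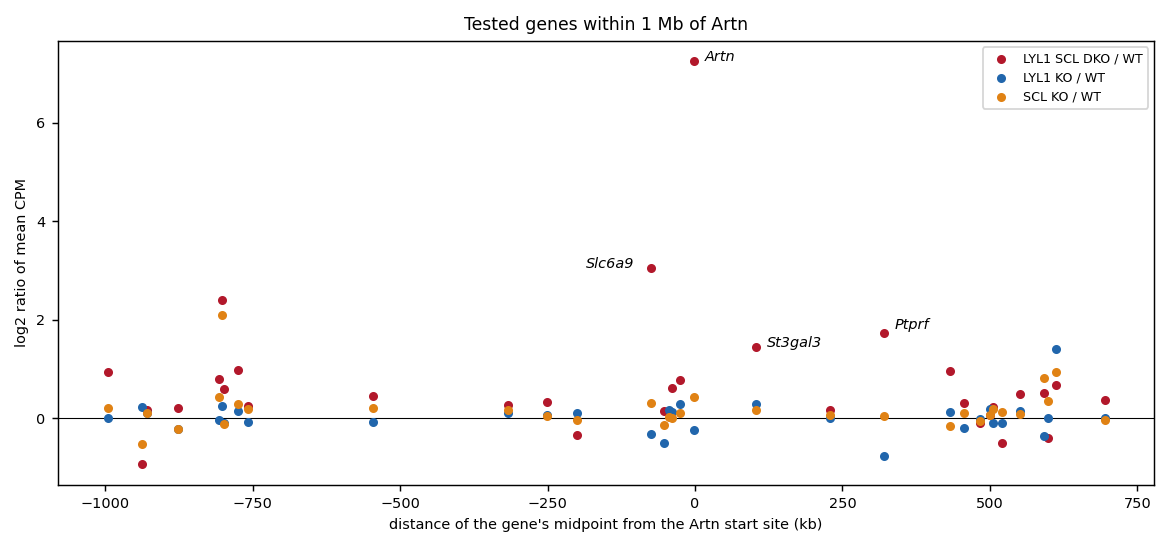
Log2 ratio of mean CPM to WT for DKO, LYL1 KO and SCL KO (colours) for the 33 tested genes within 1 Mb of Artn, against the distance of the gene's midpoint from the Artn start in kb. Artn, Slc6a9 and St3gal3 are the members, and the DKO ratios of the genes between Slc6a9 and Artn lie below those of all 3.

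Of the 106 members, 6 are in any of 26 lists of pathway and cell type genes. The lists hold 536 of the 15399 tested genes and were chosen with earlier results of these data known, so nothing is read from that count. These 6 are Jag2, Hes1, Smad7, Spry2, Vegfa and Insig1. All were called higher and are counted as higher in their lists below, and that part of the counts follows from their choice. The lists compare DKO with WT alone, and a gene named from them may also differ in LYL1 KO or SCL KO. Over all tested genes the median log2 change of DKO against WT was 0.04. Directions given here are relative to the TMM scaling. With plain library totals that median was 0.46, and 6530 genes were called higher and 1535 lower, where TMM gave 2532 and 2780. Of 23 tested Notch and Wnt genes, which hold Jag2 and Hes1, 4 were higher and 2 lower by the test, with a median log2 change of 0.02 (8 and 1 with plain totals). Wnt10b, a Wnt ligand, rose by 4.74 ± 0.63 on the log2 scale (adjusted p = 0.000147), and Fzd5, a Wnt receptor, rose by 2.21 ± 0.60 (adjusted p = 0.0144). Both had low DKO means, under the 10 CPM that the choice of members required. Notch3 fell by 2.47 ± 0.71 (adjusted p = 0.018). The calls of Fzd5 and Notch3 were lost without DKO 3, WT 1 or WT 2, and that of Notch3 also without DKO 2 (adjusted p up to 0.0702 and 0.0684).

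Of 27 tested TGF-beta, BMP and activin genes, which hold Smad7, 7 were higher and 4 lower, with a median of -0.30 (10 and 4 with plain totals). Smad3, a signal transducer, rose by 1.92 ± 0.13 (adjusted p = 1.1e-06), and Tgfb3, a ligand, rose by 4.49 ± 0.43 (adjusted p = 1.4e-05). The SCL KO to WT ratios of Smad3 and Tgfb3 were 2.35 and 2.82, above the band of the choice. The ligand Tgfb1 fell by 1.30 ± 0.16 (adjusted p = 6.63e-05), as did the latent binding protein Ltbp1, by 1.12 ± 0.18 (adjusted p = 0.00046).

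Of 28 tested immediate early and MAPK feedback genes, which hold Spry2, 5 were higher and 2 lower (6 and 1 with plain totals). Spry1, its close relative, fell by 1.47 ± 0.26 (adjusted p = 0.00101), while the AP-1 genes Jund and Fosl2 rose by 0.96 ± 0.18 and 1.19 ± 0.24 (adjusted p = 0.00131 and 0.00247). Of 22 tested glycolysis and hypoxia genes, which hold Vegfa, 6 were higher and 5 lower (12 and 2 with plain totals). Adm, the vasodilator adrenomedullin, rose by 4.36 ± 0.66 (adjusted p = 0.000372) and Ndrg1 fell by 2.02 ± 0.23 (adjusted p = 4.75e-05). The DKO mean of Adm was also under 10 CPM. Of 24 tested cholesterol and fatty acid synthesis genes, 9 were lower and Insig1 was the 1 higher, but with plain totals 8 were higher and 1 lower.

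The Scl complex and blood transcription factor list holds no member. Of its 37 tested genes 9 were higher in DKO than in WT and 11 lower (15 and 10 with plain totals). The list holds the targeted genes Tal1 and Lyl1 themselves, with log2 changes of -2.62 and -1.105. Lower RNA of the targeted genes goes with the knockout labels, so that part of the lower count is no result about the list. Lmo2, the bridge protein of the complex, rose by 1.35 ± 0.12 (adjusted p = 6.58e-06), and Gata1 fell by 1.86 ± 0.26 (adjusted p = 0.000184). The SCL KO to WT ratio of Lmo2 was 1.82, above the band of the choice. The megakaryocyte and platelet list had 17 of 21 tested genes lower and 0 higher, the erythroid list 10 of 17 lower and 1 higher, the endothelial list 12 of 25 lower and 2 higher, and the macrophage and monocyte list 6 of 26 lower and 0 higher. With plain totals these 4 lists had 15, 10, 8 and 3 genes lower and 2, 3, 3 and 0 higher. Of the 536 tested genes in all 26 lists, 63 were higher and 149 lower, but with plain totals 122 were higher and 93 lower. None of the 4 lists above holds a member, and their part in the members' levels was not tested.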

How the data were processed

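RNA from 12 pooled samples was sequenced with a stranded poly(A) kit, per the labels' protocols. The authors deposited 1 table of raw counts per gene for GRCm38 and Ensembl release 87, made with STAR 2.5.2b and featureCounts of Subread 1.5.2, per the submitters' processing notes and the file headers. The counting was strand-specific, and reads of near-identical genes may be lost or divided. Groups and replicate numbers come from the labels.

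Counts were analysed with edgeR 4.0.16 in R 4.3.3. Genes passed filterByExpr by group (minimum count 10), libraries were scaled by TMM, and CPM values are computed from these scaled libraries. Groups were compared in 1 quasi-likelihood fit with group as the only term, called at an adjusted p under 0.05 (Benjamini-Hochberg over all genes), and checked on simulated counts. The members and the 26 gene lists were chosen with earlier results of these data known. Values in all libraries are given for the 20 named members of highest ratio, the 5 of highest DKO mean and those in a list. St3gal3, Arid5a and Gpc4 were added after their values were seen, as were the scaling by plain library totals and the block for the single knockouts.

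Same-numbered libraries were correlated in their deviations from the group means. The values were 0.344, 0.197 and 0.556 between DKO and SCL KO and 0.122, 0.268 and 0.430 between SCL KO and WT. Libraries of different numbers were not compared, so these values cannot show whether same-numbered libraries were paired. The DKO and WT libraries correlated at -0.00105, 0.167 and 0.267. Between LYL1 KO and each other group, 1 of 3 correlations was below 0. The main fit, with group as its only term, did not use any pairing of SCL KO with DKO or WT. Calls from it in those comparisons are therefore unpaired, and only the replicate block took the replicate number into account. Alternatives were DESeq2 1.42.0 size factors and Wald test, limma 3.58.1 voom, no filter, a replicate block, 6 libraries, each library left out, and other thresholds of the choice of members.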

Additional observations from a re-analysis of the deposited data

Results flagged for a closer look

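A positive interaction was called by edgeR's quasi-likelihood test for 76 of the 106 members, which means that the Lyl1 knockout had a more positive effect in SCL KO than in WT embryos. Over all genes the share was 3.51%. The same group means chose the members, so the count describes the choice and is no independent evidence of a difference between the effects.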

How the results depend on the processing

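Choosing the members by plain library totals gave 270 genes, 78 of them shared with the 106. A ratio of at least 2.0 gave 224, of at least 3.0 gave 70, and a narrower band of single-KO ratios, starting at 0.8, gave 41. Without 1 library the choice gave 84 (WT 3) to 135 (DKO 1) genes, and 38 members were kept in all 12 such settings. Of the members, 5, 7 and 22 were lost without DKO 1, 2 or 3, and Artn was lost without LYL1 KO 2, SCL KO 2, WT 1 or WT 2.

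With plain totals 6530 genes were higher in DKO than in WT, 3840 than in SCL KO and 6944 than in LYL1 KO, and 1933 had a positive interaction. DESeq2's Wald test gave 881 for the interaction. In the 6 libraries alone 1596 genes were higher in DKO than in WT and 806 than in SCL KO. Leaving out 1 library gave 1783 to 2622 genes against WT, 621 to 1333 against SCL KO, 1765 to 2796 against LYL1 KO and 241 to 641 for the interaction, and 49 (without SCL KO 1) to 87 members with an interaction. Counts against SCL KO moved over 1.5 times without DKO 2 (815), SCL KO 1 (621) or SCL KO 2 (662), those against LYL1 KO without LYL1 KO 1 (1765), and interactions without DKO 2 (326), LYL1 KO 1 (252), LYL1 KO 2 (301), SCL KO 1 (241) or SCL KO 2 (279). With the replicate number as a block the counts were 2944, 1694, 3045 and 791 genes and 104, 101, 103 and 87 members, and the block moved none of these by over 1.5 times. It moved the genes called in SCL KO against WT to 1226, against 774 without it. The cause of these movements was not tested.

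Of 551 alternatives for 29 named members, 542 kept direction and call and 0 reversed. These members were chosen for a high DKO to WT ratio, so a kept direction largely describes the choice. Smad7 lost its call in 5 (adjusted p 0.0746 to 0.0938) and Slc24a1 gained one in 4. The calls gained by Slc24a1 include those without DKO 1 or DKO 3, where its level was low. Its log2 change ran from 0.193 to 2.85 over the alternatives. Low counts limit the ratios of Artn, and 3 libraries per group limit all others.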
